A study of Bos taurus with 6 samples.

Results

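Carbonic anhydrases speed the interconversion of carbon dioxide and water with bicarbonate and a proton, and so set how quickly a cell can buffer its own metabolic acid. The family is spread over the cell: CA2 and CA13 work in the cytosol, while CA4, CA9, CA12 and CA14 are held at the plasma membrane with the active site facing outwards. CA8 and CA11 belong to the family by sequence but lack catalytic activity, and SLC4A7 is a sodium bicarbonate cotransporter that brings base into the cell. CA9 and CA12 are textbook targets of the hypoxia-inducible transcription factor HIF-1, in tumours above all. These 9 genes, chosen by name as carbonic anhydrases and a bicarbonate transporter, were all found by Entrez identifier among the 19163 genes counted.

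The genes were measured by RNA-seq in F7, a single line of bovine pluripotent stem cells from an in vitro fertilised Holstein Friesian embryo. One group was grown on mouse embryonic fibroblasts stopped from dividing with mitomycin C (MC-F7, called 1M-F7 in the labels) and the other on fibroblasts fixed with methanol, which are dead (MT-F7). Each group had 3 libraries, both were given as 15 passages, and cells that stayed afloat over a gelatin-coated dish were collected, so some mouse fibroblasts may have remained. The study's statistics describe technical replicates and do not state separate cultures, so the SDs and p-values below measure only the spread between these libraries. The comparison asks how the feeder treatment altered the stem cells. The study's methods also give a daily medium change for MC-F7 and a change every other day for MT-F7. Feeder and medium schedule therefore cannot be told apart.

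The libraries held 21958386 to 24933430 reads assigned to genes, and genes of the mitochondrial genome took 16.3% to 28.3% of them, most in replicate 3 of both groups. At this depth 3 counts, the smallest amount taken as detected, correspond to 0.12 to 0.137 counts per 1000000 counts (CPM), a limit that covers counting error only. Of 11 pluripotent cell markers, 8 were in the table and all were detected, and 7 were lower in MT-F7, with POU5F1 at 804 to 1428 CPM in MC-F7 and at 472 to 561 CPM in MT-F7. By the test given below, 11.3% of all genes tested were lower. The marker that did not pass, SALL4, had means of 37.1 CPM in MC-F7 and 47.0 CPM in MT-F7.

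Among the 9 genes, the cell-surface enzymes CA4 and CA9 fell steeply in MT-F7, the cytosolic enzyme CA2 rose, and CA14, the most abundant of them in both groups, rose moderately. SLC4A7 fell slightly, CA11 did not pass the test, and CA8, CA12 and CA13 were close to the detection limit throughout. With 6 of the 9 genes abundant enough to test, 5 passed an adjusted p of 0.05 in edgeR's quasi-likelihood test, 2 of them higher and 3 lower in MT-F7. Over all 13001 genes tested, 23.2% passed, 11.9% as higher and 11.3% as lower. All 6 tested genes had groups that did not overlap, against 39.6% of all genes tested. The median log2 fold change of MT-F7 over MC-F7 (log2FC, given with its standard error, SE) was -0.06 over the 6 genes and 0.00 over all genes tested. In bulk RNA, fewer cells expressing a gene and less RNA per cell cannot be told apart.

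**Figure D1:**
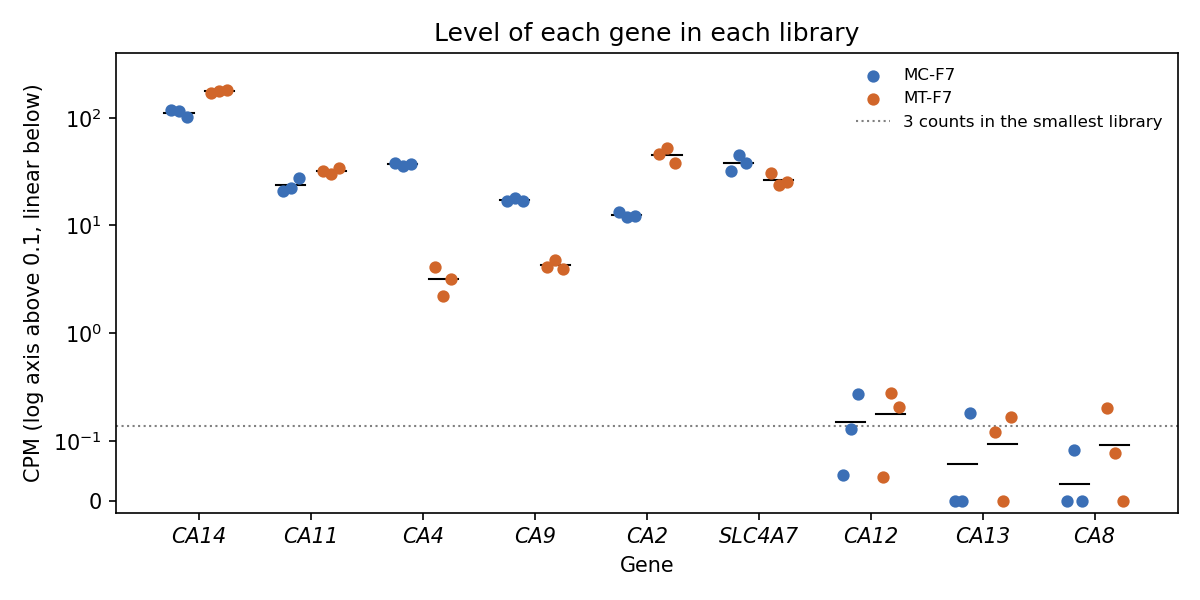
Level of the 9 genes in each library, in CPM on an axis that is logarithmic above 0.1 and linear below. Points are libraries, short lines are group means (n = 3), and the dotted line marks 3 counts in the smallest library. CA4 and CA9 sit lower in MT-F7, CA2 and CA14 higher, and CA12, CA13 and CA8 lie around the dotted line in both groups.

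CA4, an enzyme tied to the outer face of the membrane by a lipid anchor, changed most. Its level was 37.7, 35.9 and 36.9 CPM in the MC-F7 libraries and 4.09, 2.21 and 3.21 CPM in the MT-F7 libraries. The MC-F7 libraries were nearly equal, with a coefficient of variation of 2.45%, and the lowest of them stood 8.78-fold above the highest MT-F7 library. The mean went from 36.9 ± 0.904 to 3.17 ± 0.943 CPM (SD, n = 3), which is 11.7-fold lower (95% interval 8.34 to 16.4). The log2FC was -3.55 (SE 0.226, adjusted p = 7.65e-07), the 69th largest in absolute size of the 13001 genes tested. The MT-F7 values rest on 102, 55 and 78 reads and vary more among themselves, with a coefficient of variation of 29.8%. On the log2(TPM + 1) scale, where the deposited values of CA4 in MT-F7 lie well under the pseudocount, limma gave -1.48.

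CA9, a membrane-spanning enzyme induced by hypoxia, moved the same way with less amplitude. Its level was 16.9, 18.2 and 16.8 CPM in MC-F7 and 4.09, 4.81 and 3.91 CPM in MT-F7. The groups were far apart relative to their spread, as the lowest MC-F7 library was 3.49-fold above the highest MT-F7 library. The means were 17.3 ± 0.760 and 4.27 ± 0.476 CPM (SD, n = 3), and CA9 was 4.09-fold lower in MT-F7 (95% interval 3.12 to 5.34). The log2FC was -2.03 (SE 0.179, adjusted p = 6.58e-06). On the log2(TPM + 1) scale limma gave -1.02. In the RefSeq annotation of assembly ARS-UCD2.0 the CA9 gene overlaps a long noncoding RNA, LOC112447810, that is not in the count table used here, and reads of the pair cannot be told apart without the strand setting.

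CA14, also a membrane-spanning enzyme with an outer active site, did not follow the other surface forms. It was at 117, 115 and 101 CPM in MC-F7 and at 171, 177 and 180 CPM in MT-F7. All MT-F7 libraries lay above all MC-F7 libraries, with the lowest MC-F7 value in replicate 3. The mean rose from 111 ± 8.96 to 176 ± 4.57 CPM (SD, n = 3), a log2FC of 0.65 (SE 0.142, 95% interval 0.34 to 0.96, adjusted p = 0.00533). That is 1.57-fold, well under the changes of CA4 and CA9 but past the threshold in each of the 18 alternative fits. CA12, the remaining surface form, gave 1, 3 and 6 reads in MC-F7 and 1, 7 and 5 reads in MT-F7. These counts overlap and correspond to a ratio of 1.20 with a counting interval from 0.486 to 3.06, and a difference was not detectable at this depth. In the RefSeq annotation of assembly ARS-UCD2.0 the CA12 gene overlaps APH1B, so the few reads of CA12 are uncertain, since the strand setting of the counting is not known.

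CA2, the fast cytosolic enzyme best known from red blood cells and kidney, had the largest rise of the 9 genes. Its level was 13.3, 12.1 and 12.3 CPM in MC-F7 and 45.9, 52.6 and 38.2 CPM in MT-F7. The lowest MT-F7 library was 2.87-fold above the highest MC-F7 library. The mean went from 12.6 ± 0.655 to 45.6 ± 7.22 CPM (SD, n = 3), and CA2 was 3.58-fold higher in MT-F7 (95% interval 2.79 to 4.58). The log2FC was 1.84 (SE 0.165, adjusted p = 7.58e-06). CA13, the other cytosolic enzyme among the 9 genes, had 0, 0 and 4 reads in MC-F7 and 3, 0 and 4 reads in MT-F7. Reads were found in 1 MC-F7 library and in 2 MT-F7 libraries, and the ratio of 1.62 had a counting interval from 0.411 to 7.53.

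The forms without catalytic activity gave no call. CA11, a secreted protein of the family, was at 21.1, 22.2 and 27.5 CPM in MC-F7 and at 32.4, 30.0 and 34.2 CPM in MT-F7. The groups did not overlap, but MC-F7 replicate 3 came within 1.09-fold of the lowest MT-F7 library. The means were 23.6 ± 3.39 and 32.2 ± 2.08 CPM (SD, n = 3), a log2FC of 0.43 with a 95% interval from 0.07 to 0.80 and an adjusted p of 0.0817. Of 6 fits that left out 1 library, only 1 passed. It lacked MC-F7 replicate 3, with a log2FC of 0.57 and an adjusted p of 0.0272. In the others the log2FC was as low as 0.35 and the adjusted p as high as 0.281. CA8, an intracellular protein that binds the inositol trisphosphate receptor, had 0, 2 and 0 reads in MC-F7 and 5, 2 and 0 reads in MT-F7. Its ratio of 3.23 had a counting interval from 0.615 to 31.9, which covers both directions.

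SLC4A7, which imports sodium with bicarbonate and so counters acid, was the one transporter among the 9 genes. Its level was 32.1, 45.1 and 38.1 CPM in MC-F7 and 30.4, 23.9 and 25.2 CPM in MT-F7. The groups did not overlap, but only narrowly, since MC-F7 replicate 1 was 1.05-fold above MT-F7 replicate 1. The mean went from 38.4 ± 6.49 to 26.5 ± 3.47 CPM (SD, n = 3), a log2FC of -0.55 (SE 0.170, adjusted p = 0.0349). The call depended on single libraries. The adjusted p was 0.177 without MC-F7 replicate 2, 0.0502 without MC-F7 replicate 3, 0.146 without MT-F7 replicate 2 and 0.0503 without MT-F7 replicate 3, with log2FC values between -0.54 and -0.44. On the log2(TPM + 1) scale limma gave -0.18 and an adjusted p of 0.214.

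**Figure D2:**
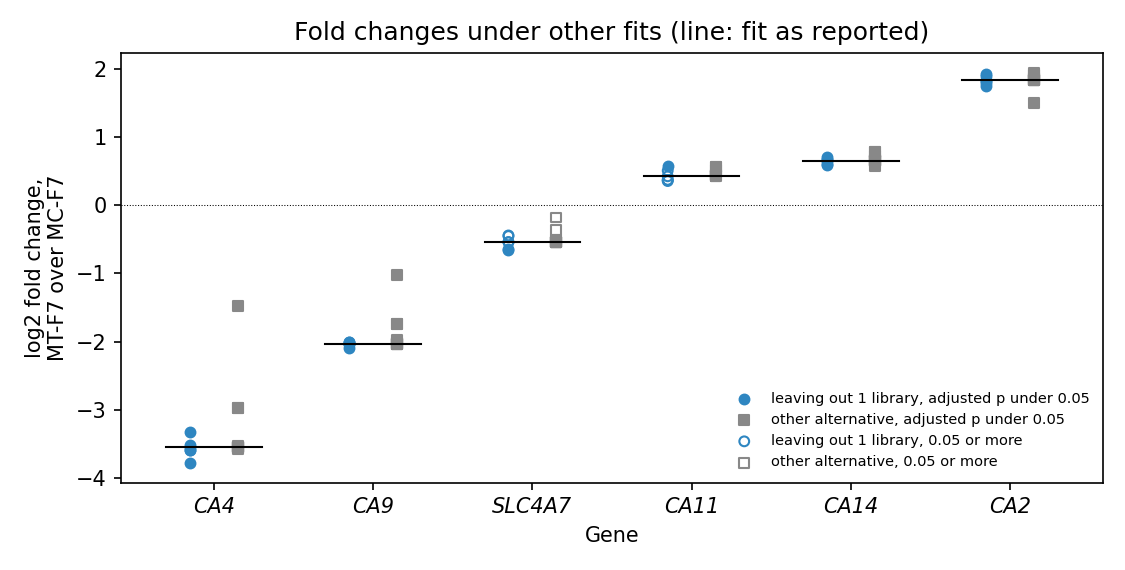
Log2 fold change of the 6 tested genes, MT-F7 over MC-F7, under the fit as reported (line) and under each alternative, with circles for fits that leave out 1 library and squares for other settings. Filled points passed an adjusted p of 0.05 and open points did not. CA4, CA9, CA14 and CA2 are filled throughout, while SLC4A7 and CA11 hold both kinds of point, and all points of a gene lie on its own side of 0.

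To compare levels between genes, the deposited per-length values, which the authors call TPM, were scaled to a sum of 1000000 in each library. On this scale CA14 stood first in both groups, with a mean level of 51.3 ± 4.72 in MC-F7, and of 85.1 ± 1.54 for MT-F7 (SD, n = 3). In MC-F7 the next levels were CA11 at 15.5 ± 2.04, CA4 at 15.3 ± 0.414 and CA9 at 14.2 ± 0.726, and the libraries of CA11 and CA4, and those of CA4 and CA9, overlapped. CA2 followed at 10.5 ± 0.609 and SLC4A7 at 5.55 ± 0.947. In MT-F7 the order was different. CA2 came next after CA14 at 39.9 ± 6.76 and was followed by CA11 at 22.2 ± 1.20, while SLC4A7 at 4.01 ± 0.550 and CA9 at 3.68 ± 0.443 overlapped, and CA4 was below both at 1.38 ± 0.413. CA12, CA13 and CA8 came last in both groups, with overlapping libraries and means of at most 0.164.

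Ratios within a library do not depend on how the libraries are scaled. The per-length level of CA14 was 3.46, 3.57 and 3.04 times that of CA4 in the MC-F7 libraries and 46.6, 89.5 and 62.3 times in the MT-F7 libraries. The per-length level of CA2 was under that of CA9 in every MC-F7 library, with ratios of 0.802, 0.677 and 0.743, and 11.4, 11.1 and 9.91 times that of CA9 in MT-F7. The surface enzymes also changed relative to each other, as the ratio of CA4 to CA9 went from 1.08 ± 0.0701 to 0.383 ± 0.139 (SD, n = 3).

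Across the 15 family members in the table, which add CA1, CA3, CA5A, CA5B, CA6, CA7 and CA10 to the 8 described, the make-up of the carbonic anhydrase transcripts shifted. CA4 and CA9 together with CA14 and CA12 made up 62.5%, 62.3% and 60.1% of the summed per-length level in the MC-F7 libraries and 42.9%, 39.2% and 49.3% in the MT-F7 libraries. Within this surface fraction the share of CA4 went from 11.7% ± 0.484 to 0.675% ± 0.235 and that of CA9 from 10.8% ± 0.425 to 1.77% ± 0.0482 of all carbonic anhydrase transcripts, while that of CA14 was 39.0% ± 1.92 and 41.3% ± 4.97 (SD, n = 3). The cytosolic enzymes made up 20.9% ± 1.20 in MC-F7 against 43.6% ± 7.04 in MT-F7, most of it CA3 and CA2. CA3, a form of low activity, made up 12.8% ± 1.36 and 24.4% ± 6.09, and CA2 made up 7.57% to 8.31% and 17.9% to 19.8%. The summed per-length level of the surface forms was 74.8 to 84.2 in MC-F7 and thus below the 88.7 to 91.7 of MT-F7. The summed cytosolic level was 27.5 ± 2.74 in MC-F7 against 91.8 ± 25.6 in MT-F7.

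**Figure D3:**
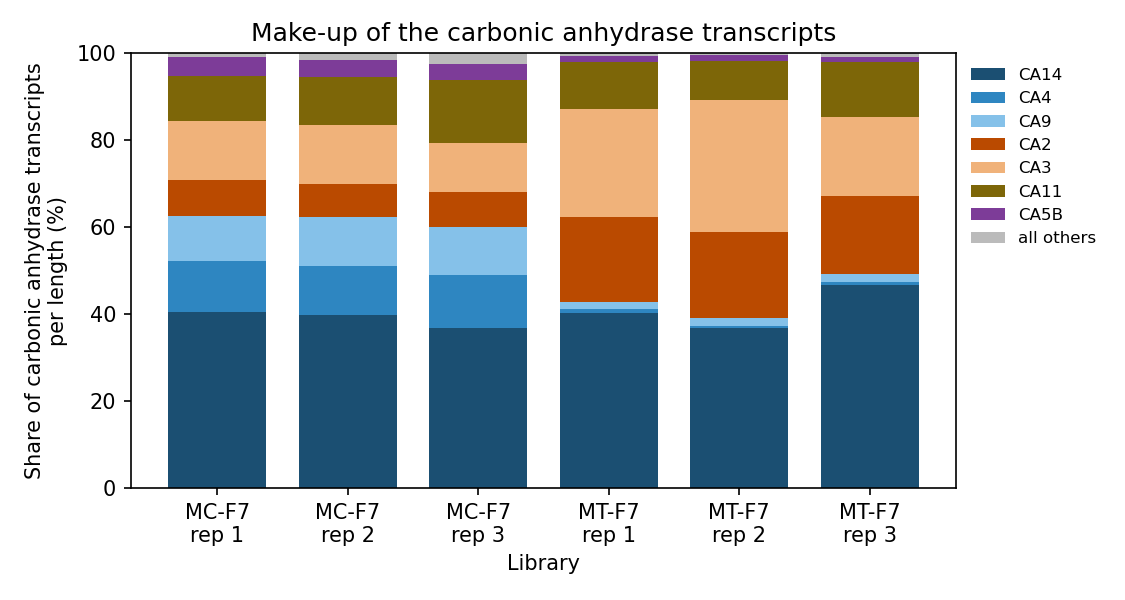
Share of each gene in the summed per-length level of all carbonic anhydrases, in percent, with 1 bar per library. CA14 keeps the largest block in all 6 libraries, the blocks of CA4 and CA9 shrink to thin bands in MT-F7, and those of CA2 and CA3 widen.

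Of the other carbonic anhydrases, 3 were abundant enough to test, and 1 was higher and 1 lower. CA3, typical of muscle, was at 23.1, 23.4 and 18.2 CPM in MC-F7 and at 61.7, 85.8 and 41.2 CPM in MT-F7, with a log2FC of 1.52 (SE 0.221, adjusted p = 3.38e-04). It lies next to CA2 in the RefSeq gene order of ARS-UCD2.0, and both rose. CA1, the gene beyond CA3, had 0 reads in MC-F7 against 5 in MT-F7. CA5B, a mitochondrial form, fell from 15.6 ± 1.66 to 7.16 ± 1.73 CPM (SD, n = 3; log2FC -1.14, adjusted p = 0.00145), and its mitochondrial relative CA5A had a log2FC of -1.08 with an adjusted p of 0.0972. The genes on either side of CA4 did not follow it: USP32 had a log2FC of 0.56 (adjusted p = 0.218) and ZNHIT3 of -0.35 (adjusted p = 0.178). Next to CA9, ARHGEF39 had 0.30 (adjusted p = 0.245), and TPM2 was higher in MT-F7 at 0.66 (adjusted p = 0.0098).

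The shares called in the lists of transporters and sensors that follow rest on few genes and are to be read beside the 23.2% of all genes tested. The bicarbonate transporters other than SLC4A7 gave a call in 1 of 9 tested genes, or 11.1%, with a median log2FC of -0.11. SLC4A2, an anion exchanger that carries bicarbonate out of the cell and so acts opposite to SLC4A7, rose from 42.3 ± 5.66 to 82.2 ± 11.3 CPM (SD, n = 3; log2FC 0.95, adjusted p = 0.00175). SLC4A2 passed in all alternative fits, unlike SLC4A7. Among 10 tested sodium/proton exchangers and their partners, 1 was higher and 2 were lower, with a median log2FC of 0.23. The endosomal exchanger SLC9A9 fell (log2FC -1.71, adjusted p = 0.00521) at levels of at most 2.35 CPM, and the scaffold proteins SLC9A3R1 and SLC9A3R2 went to 0.55 (adjusted p = 0.0144) and -0.72 (adjusted p = 0.0064).

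Monocarboxylate transporters carry lactate across the membrane together with a proton. Of 4 tested genes, 3 such transporters and the chaperone BSG, 1 passed. SLC16A3, the form typical of glycolytic cells, was at 30.4, 33.4 and 19.1 CPM in MC-F7 and at 2.53, 2.05 and 4.20 CPM in MT-F7, with a log2FC of -3.24 (SE 0.292, adjusted p = 7.64e-06). Its fall was close in size to that of CA4. SLC16A1 had a log2FC of -0.42 (adjusted p = 0.101) and BSG, which brings both transporters to the membrane, of -0.16 (adjusted p = 0.518). Over all genes tested, 23.2% passed in either direction and 11.3% passed as lower. Of 9 tested proton sensors and channels, 2 were lower, or 22.2%, with a median log2FC of 0.05. They were the proton-activated chloride channel PACC1 (log2FC -1.12, adjusted p = 0.00161) and the proton-sensing receptor GPR4 (-0.54, adjusted p = 0.0499), and GPR4 missed the threshold in 13 of 18 alternative fits.

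HIF-1 targets other than CA9 and CA12 were counted because both of these are HIF-1 targets. CA12 was too low to test, with 10 reads in MC-F7 and 13 in MT-F7. Of 20 other targets tested, 15 were lower in MT-F7, with a median log2FC of -1.11, to be read beside the 11.3% of all genes called lower. The 8 largest changes were in BNIP3 (-4.20), LDHA (-4.05), ADM (-3.89), PGK1 (-2.06), ANKRD37 (-1.72), ENO1 (-1.56), ALDOA (-1.51) and EGLN1 (66.3 to 23.8 CPM on average), among them the glycolytic enzymes LDHA, PGK1, ENO1 and ALDOA. The 5 targets that did not pass were PFKFB3 (-0.65), DDIT4 (-0.43), KDM3A (-0.07), EGLN3 (0.14) and PFKFB4 (0.49), so the targets did not all fall. The change of CA9, -2.03, was close to that of PGK1. The count of lower genes was 8 and 9 in the limma fits on log2(TPM + 1) and on TPM means of at least 1. From these same libraries, the paper already lists LDHA, PGK1, ENO1, ALDOA and EGLN1 among HIF-1 pathway genes lower in MT-F7. The count is therefore not independent of that report.

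**Figure D4:**
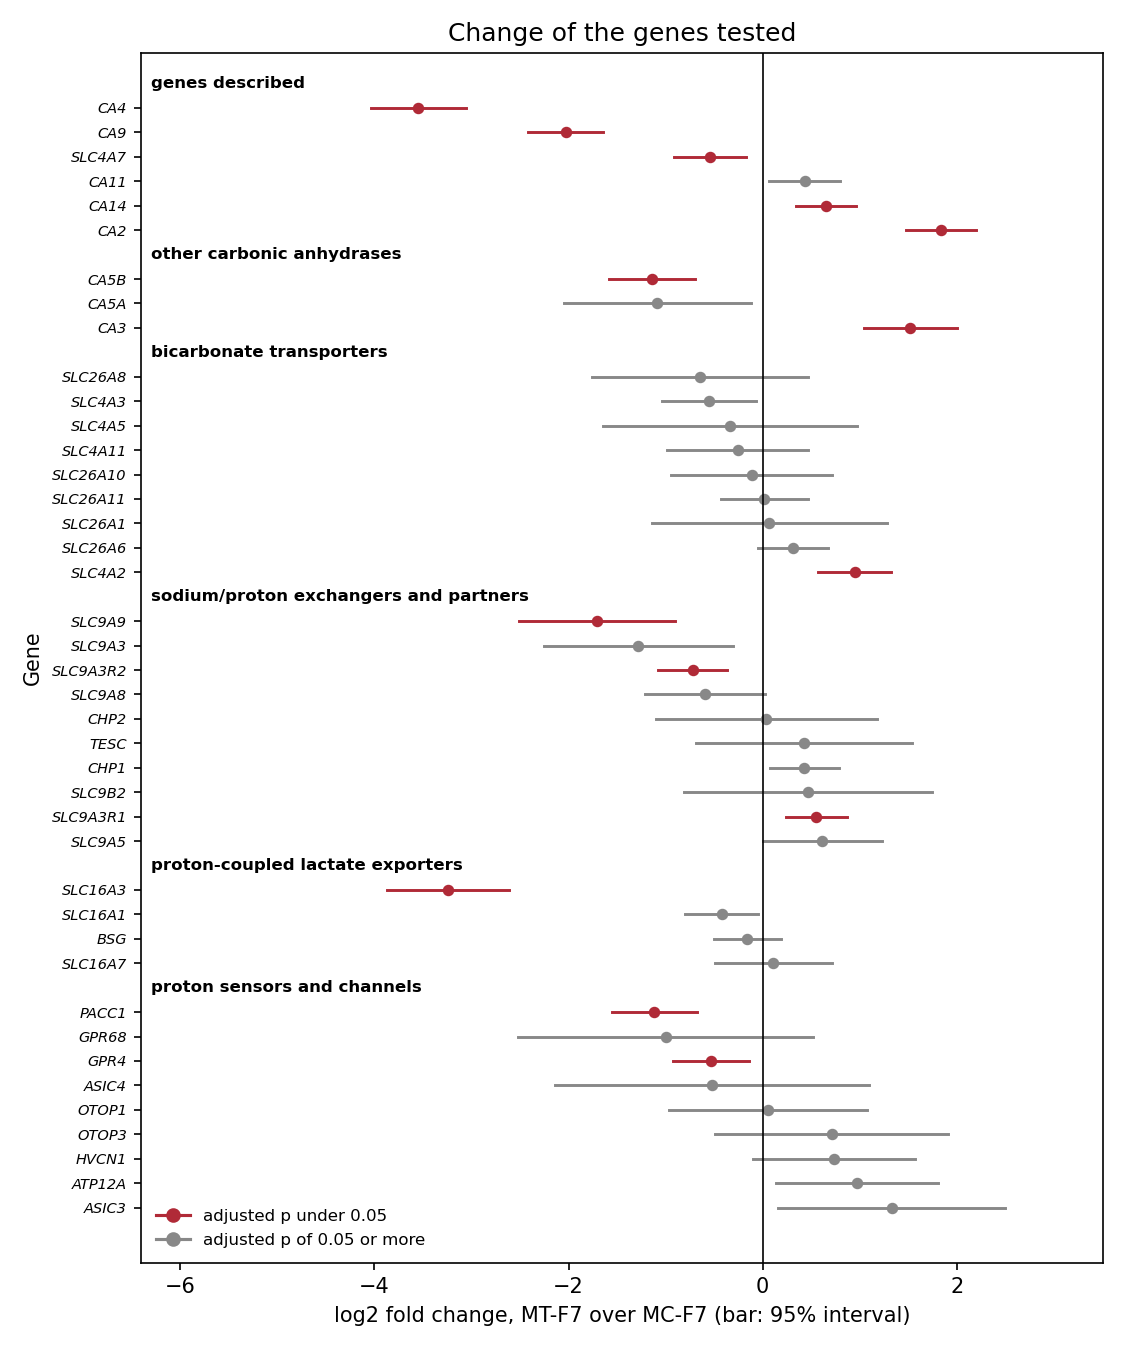
Log2 fold change, MT-F7 over MC-F7, of each tested gene of the 9 and of further genes of acid and base handling, with 95% intervals as bars and genes past an adjusted p of 0.05 in red. CA4 and SLC16A3 lie farthest to the left at -3.55 and -3.24, CA2 and CA3 farthest to the right among the red points at 1.84 and 1.52, and most transporters and sensors are grey.

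Markers of other cell types moved with the groups too. Their calls are to be read beside the shares over all genes tested, 11.9% higher and 11.3% lower. The summed level of 15 fibroblast markers was 399 to 519 CPM in MC-F7 and 788 to 893 CPM in MT-F7, with MGP at 0 in all libraries and FAP at 0 in MT-F7. Of 13 tested, 5 were higher and 1 lower, and 7 did not pass, among them COL1A1, COL1A2, DCN, LUM and THY1. FBLN1 alone went from a mean of 108 to 329 CPM. Of 12 neural markers, 10 were in the table, and their sum was 659 to 822 CPM in MC-F7 and 1353 to 1491 CPM in MT-F7, with 4 of 7 tested higher and DCX at 0 in MC-F7. LHX2 went from a mean of 34.4 to 326 CPM and SIX3 from 86.2 to 289 CPM, while NES, ZIC2 and TUBB3 did not pass. The 11 trophectoderm markers summed to 746 to 1101 CPM in MC-F7 and 187 to 224 CPM in MT-F7, most of it KRT18 at means of 855 and 194 CPM, and 3 of 6 tested were lower. CDX2 and HAND1 were at 0 in all libraries, and TFAP2A, TFAP2C and TEAD4 had log2FC values of 0.15, -0.02 and 0.21 without passing. The 10 endoderm markers summed to 123 to 204 CPM in MC-F7 and 333 to 359 CPM in MT-F7, most of it APOA1 at means of 160 and 348 CPM. Of 3 tested, APOA1 was higher and FOXA2 lower, and GATA4 and AFP were at 0 in all libraries. The paper reports a lower rate of alignment to the bovine genome in MC-F7 than in MT-F7. It proposes that fixed feeders left fewer feeder cells in the cultures. The part of these markers, and of mouse reads from the feeder cells, in the levels of the carbonic anhydrases was not tested.

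For each called gene the closest pattern over the 6 libraries was sought as the root mean square difference of centred log2 CPM. For CA4 these were LMO7 (0.175) and ZNF296 (0.252), for CA9 NAV2 (0.0815) and RIMKLA (0.0872), and for CA2 LMO2 (0.0463) and EYA1 (0.0821). For CA14 they were PIMREG (0.0457) and OLFM2 (0.0529), and for SLC4A7 LRP8 (0.0483) and SLMAP (0.0516). No other carbonic anhydrase was among them. The closest genes of CA4 lay farther from it than those of the other called genes. The distance is not scaled by the size of a change, which was largest for CA4. It therefore cannot tell whether the pattern of CA4 differs in shape.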

How the data were processed

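RNA-seq data of 3 MC-F7 and 3 MT-F7 libraries were used. The authors aligned 150 bp paired reads to an Ensembl Bos taurus genome with HISAT2 2.0.5 and deposited raw read counts per Entrez gene from featureCounts 1.5.0-p3 (versions from the submitters' processing notes). The genome build, the strand setting and the treatment of reads that map more than once are not given in the sources used here, so no coordinates are printed and reads shared between related genes cannot be told apart. The authors also deposited values they call TPM, which were the same multiple of the count in each library, within 0.1%, for 9695 of 9708 genes with at least 50 counts in each. Their library sums were 154763 to 164394 and not 1000000, so levels per length were rescaled here, which leaves the ratios within a library as deposited.

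CPM were computed as counts over total counts. Genes were kept by filterByExpr (minimum count 10, total 15) in edgeR 4.0.16 under R 4.3.3 and normalized by TMM. The groups were compared by the two-sided quasi-likelihood test of edgeR, with no block for the replicate number and with Benjamini-Hochberg adjustment over all 13001 genes tested and a threshold of 0.05. Intervals are 95%, from the fit or, for counts of the genes not tested, exact Poisson and binomial. The steps were tested on simulated data. Alternatives used DESeq2 1.42.0 and limma 3.58.1, other normalizations and filters, a replicate block and each library left out in turn. Leaving out replicate 3 of both groups was chosen after seeing the data.

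The 9 genes and all lists were chosen with earlier results of these data known. All 9 were named, with every gene of the pathway lists past the threshold (at most 8 in a list), SLC4A2, SLC16A1, SLC16A3 and BSG, genes beside CA2, CA4 and CA9, and the 2 genes closest to each called gene in centred log2 CPM (prior count 2). CA5A, CA1, USP32, ZNHIT3, ARHGEF39, TPM2, the HIF-1 targets that did not pass and the markers named singly were added after their values were seen. RefSeq assembly ARS-UCD2.0 served for symbols (19074 of 19163 genes matched) and gene order alone. Sequences were not analysed here, and 1 gene of the lists is not reported here. Figures were drawn with matplotlib 3.10.9.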

Additional observations from a re-analysis of the deposited data

How the results depend on the processing

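CA2, CA4, CA9 and CA14 kept their direction and passed the threshold in 18 of 18 alternatives, with log2 fold changes from 1.49 to 1.95, from -3.78 to -1.48, from -2.10 to -1.02 and from 0.58 to 0.78. CA11 passed in 6 of 18 alternatives, at 0.44 with the replicate block, at 0.43 by limma on log2(TPM + 1), at 0.55 on log2(TPM + 0.1) with and without a minimum mean TPM of 1, and at 0.52 without replicate 3 of both groups, and leaving out 1 library gave 0.35 to 0.57. SLC4A7 passed in 11 of 17, gave -0.18 and -0.37 by limma on log2(TPM + 1) and log2(TPM + 0.1) without passing, and ranged from -0.66 to -0.44 when 1 library was left out, where 2 of 6 fits passed. With an absolute log2 fold change over 1 required, 3 of the 9 genes passed. The count was 4 to 5 when 1 library was left out and 6 without replicate 3 of both groups, whose mitochondrial share was highest.

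Over all genes, 3016 were called, against 4674 with the replicate block, 1345 by limma on TPM means of at least 1, and 1914 to 3093 when 1 library was left out, lowest without MC-F7 replicate 2. With replicate 3 of both groups left out, 4242 genes were called. The 24 calls in the pathway lists became 15 by limma on TPM means of at least 1. The bicarbonate transporters other than SLC4A7 gave 1 to 4 calls and the sodium/proton exchangers 2 to 6. The monocarboxylate transporters with BSG gave 1 to 2, the proton sensors 1 to 4 and the HIF-1 targets 8 to 17. Of these lists, the bicarbonate transporters gave 2 calls without replicate 3 of either group. The sodium/proton exchangers gave 5 without MT-F7 replicate 3, and the monocarboxylate transporters with BSG 2 without MC-F7 replicate 3. The proton sensors gave 1 when any library but MC-F7 replicate 3 was left out. The ratio of mean levels of CA14 between MT-F7 and MC-F7 was 1.66 after rescaling and 1.72 on the TPM as deposited. Samples with the same number correlated at 0.134, 0.0445 and 0.417 after group means were removed and 2 of 6 libraries correlated best with the library of their own number, so the numbers were not taken as pairs. The cause of these differences was not tested. Depth limits CA8, CA12 and CA13, where changes under several-fold could not be detected.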
